A study of Aedes aegypti with 48 samples.

Results

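Transcripts of wild-type (WT) Aedes aegypti females at the start of the night (ZT13, 7 PM) were compared with those at the start of the day (ZT1, 7 AM), 12 h apart. The comparison took the 12 libraries that carry the labels for these groups, 6 at ZT13 and 6 at ZT1, of the 48 libraries in the series. Zeitgeber time (ZT) counts hours from lights on. Both groups were adult females of the Liverpool strain, kept on a 12 h light and 12 h dark cycle with gradual dawn and dusk, and each library came from a pool of whole mosquitoes. The remaining libraries were WT at ZT5 and ZT9 and a Cyc knockout (KO) line of the same strain at the same 4 times. Because a whole-body pool was sequenced, a change in the RNA of a cell and a change in the share of RNA that a tissue contributes cannot be told apart.

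The circadian clock of insects is a feedback loop of transcription. The protein Cycle (Cyc) pairs with Clock and switches on genes whose products later shut the pair off, and secondary loops set the daily rhythm of other clock genes. Light resets the loop each day, and clock output times feeding, flight, vision and metabolism. Aedes aegypti is a mosquito active by day, most of all in early morning and late afternoon. ZT1 thus lies early in its active phase and ZT13 early in the night.

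The WT ZT13 libraries held 15233447 to 27017019 read counts on genes (median 20480101.5), and the WT ZT1 libraries 17518626 to 28562252 (median 25169473.5). These totals did not differ beyond the spread between libraries (exact two-sided permutation test, p = 0.147). Genes received 46.5 to 47.3% of uniquely placed reads at ZT13 and 46.4 to 47.3% at ZT1. The 10 most abundant genes took 11.9% ± 0.231 of gene counts at ZT13 and 11.4% ± 0.406 at ZT1 (SD, n = 6 each, exact permutation p = 0.0411). Levels below are CPM, each gene's share of the counts on genes on a common scale of library size (TMM method). Of 23 tissue marker genes, 20 were tested, of which 1 was higher and 2 were lower at ZT13. All tested genes had 5.68% higher and 7.56% lower. The summed level of the eye markers was 7139 to 8621 CPM at ZT13 and 6635 to 8422 CPM at ZT1. Nearly all of it came from the opsin AAEL006259, with 7035 to 8505 CPM at ZT13 and 6577 to 8363 CPM at ZT1. The eye sum therefore does not speak for the other eye markers. The summed level of the salivary gland markers was 474.5 to 611.7 CPM at ZT13 and 535.6 to 650.6 CPM at ZT1. No marker was at 0 in all 12 libraries, but the gustatory receptor Gr9 (AAEL000075) was at 0 in 7 of them and the opsin AAEL005625 in 1. Those genes and the odorant receptor AAEL005680 stayed below 1 CPM in every library and were not tested.

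Time of day separated the WT libraries. The first principal component of the 500 most variable genes held 22.3% of the variance, and the libraries scored 3.69 to 12.8 at ZT13 and -13.2 to -4.38 at ZT1, without overlap (exact two-sided permutation p = 0.00217, the smallest that 6 against 6 libraries allow). Of 11536 genes with enough counts to test, 1527 (13.2%) differed at an adjusted p below 0.05 (edgeR quasi-likelihood test, Benjamini-Hochberg adjustment over all tested genes), the threshold used throughout. At ZT13, 655 genes (5.68%) were higher and 872 (7.56%) were lower. Most changes were small. The median absolute log2 fold change of the 1527 genes was 0.31, with quartiles at 0.21 and 0.49, and 92 genes (0.798%) also differed by more than 1 on the log2 scale, 34 of them higher and 58 lower. All 6 libraries of one time lay above all 6 of the other for 783 genes (6.79%), and 754 of these were among the 1527. Abundant transcripts moved in both directions, with 164 genes of at least 100 CPM higher and 179 lower at ZT13.

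**Figure D1:**
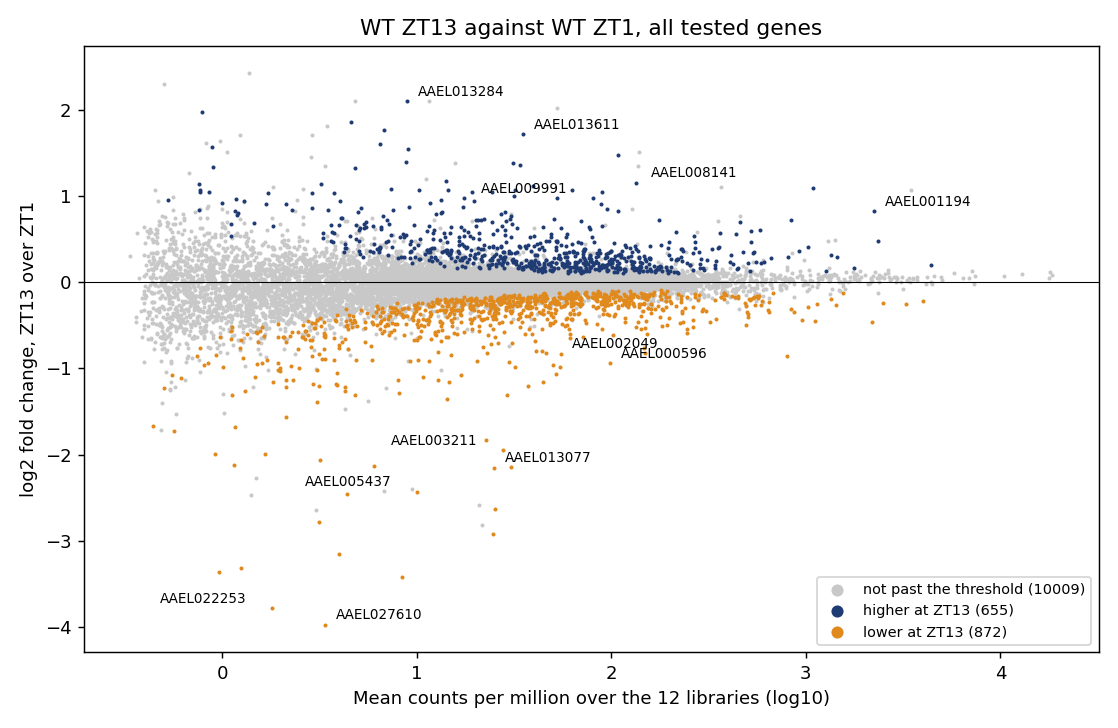
Log2 fold change of ZT13 over ZT1 in WT (vertical axis) against the mean level over the 12 libraries (log10 CPM, horizontal axis) for 11536 tested genes, 1 point each. The 655 genes higher at ZT13 are blue, the 872 lower are orange and the rest are grey, and the largest called decreases, AAEL027610 and AAEL022253, sit at low levels.

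The members of the fly circadian rhythm pathway moved in both directions between the ZT13 and ZT1 libraries. Of 11 members in this KEGG pathway the study's enrichment tables show 10, all of which were tested. Of these, 4 were higher and 1 was lower at ZT13, against 5.68% and 7.56% of all tested genes, and the median log2 fold change was 0.11, against -0.004 over all tested genes. Those tables list genes the study had called between KO and WT or as rhythmic in WT or KO, partly in these same libraries. This list and the others below are therefore not independent of the data, and some members may be listed because they varied with time. Those tables also cut long member lists short, so that most lists below cover only part of a pathway. Every list below is to be read against the same shares of all tested genes, 5.68% higher and 7.56% lower. The files pair no names with the identifiers, so that only Cyc, which the study names, is called by its name.

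Cyc (AAEL002049), the activator partner of Clock, was lower at ZT13. Its level was lowest at 36.1, median 38.7 and highest at 45 CPM at ZT13, against 63.5, 73 and 75.9 CPM at ZT1. The groups did not overlap, and the log2 fold change was -0.83 ± 0.06 (SE, edgeR adjusted p = 4.34e-07). The opposite pattern was largest for AAEL008141, annotated as a regulator of transcription by RNA polymerase II. It ran from 177 through a median of 185 to 192 CPM at ZT13, against 73.5, 83.5 and 93.6 CPM at ZT1. Every ZT13 library lay well above every ZT1 library, a log2 fold change of 1.15 ± 0.06 (SE, edgeR adjusted p = 7.81e-09). AAEL011371, annotated with DNA-binding transcription factor activity, had 104 to 122 CPM (median 116) at ZT13 and 55.0 to 70.4 CPM (median 59.9) at ZT1, again without overlap. Its log2 fold change was 0.91 ± 0.06 (SE, edgeR adjusted p = 2.41e-07).

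The other 2 pathway members past the threshold changed little. AAEL005255, also annotated with transcription factor activity, had 262 to 293 CPM at ZT13 and 208 to 253 CPM at ZT1, and AAEL005238, a protein serine/threonine kinase by annotation, had 168 to 193 CPM at ZT13 and 153 to 172 CPM at ZT1. Their log2 fold changes were 0.20 and 0.16 (edgeR adjusted p = 0.0272 and 0.0172). The groups of AAEL005255 were apart, whereas those of AAEL005238 overlapped through 1 low ZT13 library. Without WT ZT13 replicate 2, 4 or 5, the adjusted p of AAEL005255 was 0.0559, 0.0524 or 0.0513.

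The other 5 members did not pass the threshold. The annotated serine/threonine phosphatase AAEL018126 averaged 316 ± 2.49 CPM at ZT13 and 304 ± 31.3 CPM at ZT1, and AAEL007805, annotated with RNA binding, 141 ± 3.71 and 141 ± 10.9 CPM at ZT13 and ZT1 (SD, n = 6 each). AAEL019461, AAEL019753 and AAEL022593 had log2 fold changes of 0.20, 0.02 and -0.19, with edgeR adjusted p of 0.230, 0.813 and 0.344. Among the 9 tested genes listed under the GO term rhythmic process, 1 was higher and 1 was lower. AAEL011810, listed there and under negative regulation of transcription, had 27.3 to 36.7 CPM at ZT13 and 18.1 to 23.6 CPM at ZT1 (log2 fold change 0.65 ± 0.08 SE, edgeR adjusted p = 6.19e-05). AAEL010260, annotated under regulation of behavior and of ion channels, had overlapping groups of 51.1 to 56.4 CPM at ZT13 and 55.0 to 74.0 CPM at ZT1 (log2 fold change -0.24, edgeR adjusted p = 0.0116).

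**Figure D2:**
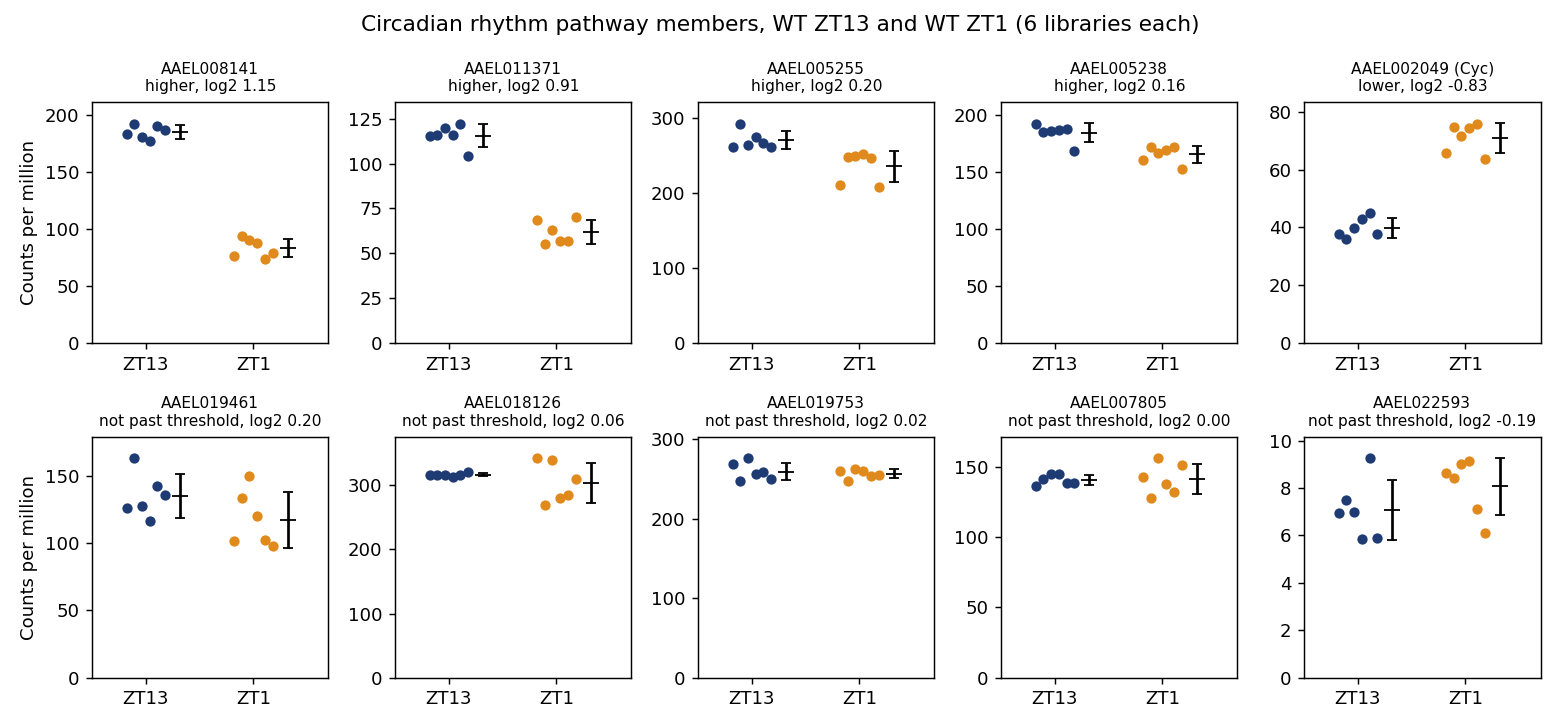
Level (CPM, vertical axes from 0) of the 10 shown members of the fly circadian rhythm pathway in the WT ZT13 (blue, left) and WT ZT1 (orange, right) libraries, 1 point per library, with the mean and SD of 6 beside them. AAEL008141 sits at 177 to 192 CPM at ZT13 and 73.5 to 93.6 CPM at ZT1, Cyc is lower at ZT13, and the 5 members of the bottom row overlap.

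The most precise decreases at ZT13 were in genes of moderate abundance. AAEL013077 had 8.57, 8.95 and 10.3 CPM as lowest, median and highest at ZT13, against 35.8, 40.8 and 45.1 CPM at ZT1. It was 4.44-fold lower at ZT13 without overlap (log2 fold change -2.15 ± 0.07 SE, edgeR adjusted p = 3.4e-11, the smallest of all tested genes). AAEL006451 had 9.25, 11.1 and 13.9 CPM at ZT13, against 45.8, 49.6 and 54.5 CPM at ZT1. All ZT13 libraries lay below all ZT1 libraries here too, with a log2 fold change of -2.14 ± 0.08 (SE, edgeR adjusted p = 2.29e-10). Neither gene has a product in the sources used here.

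Carotenoid cleavage and an ion channel were in the same class. AAEL003211, a beta-carotene dioxygenase, the kind of enzyme that cleaves carotenoids to the precursors of visual pigment, had 9.19 to 14.53 CPM (median 11.0) at ZT13 and 40.8 to 48 CPM (median 43.9) at ZT1. This was a log2 fold change of -1.95 ± 0.09 with no overlap (SE, edgeR adjusted p = 7.48e-09). AAEL005437, a transient receptor potential channel with annotated calcium channel activity, had 2.23 to 3.75 CPM (median 3.21) at ZT13 and 13.7 to 19.7 CPM (median 17.3) at ZT1. It was 5.39-fold lower at ZT13 (log2 fold change -2.43 ± 0.12 SE, edgeR adjusted p = 8.03e-09). AAEL012089, which has no annotation here, had 8.41 to 11.6 CPM at ZT13 and 29.6 to 44.5 CPM at ZT1. Its groups were likewise apart, with a log2 fold change of -1.83 ± 0.10 (SE, edgeR adjusted p = 1.74e-08).

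A second set of decreases came from genes near the limit of detection at ZT13 with a wide spread at ZT1. AAEL027610, listed under the longevity regulating pathway, had 0.0451, 0.399 and 0.573 CPM as lowest, median and highest at ZT13, against 3.08, 3.35 and 16.9 CPM at ZT1. These levels stand for 50 counts over the 6 ZT13 libraries and 916 counts over the 6 ZT1 libraries. AAEL022253 had 0.0902 to 0.338 CPM at ZT13 and 2.43 to 6.30 CPM at ZT1, AAEL017976 0.104 to 0.322 CPM at ZT13 and 1.108 to 6.09 CPM at ZT1, and AAEL017975, listed under the longevity and endocytosis pathways, 0.406 to 1.19 CPM at ZT13 and 3.75 to 17.1 CPM at ZT1. The groups of all 4 genes were apart, and the highest value of each was in WT ZT1 replicate 1. Their log2 fold changes were -3.97 ± 0.56, -3.78 ± 0.33, -3.32 ± 0.53 and -3.15 ± 0.42 (SE, edgeR adjusted p = 0.000208, 2.25e-06, 0.000644 and 0.000125). Without WT ZT1 replicate 1 they were -3.37, -3.49, -2.71 and -2.67, and all 4 stayed past the threshold. AAEL001674, a serine-type endopeptidase by annotation, completed the 10 largest decreases among genes with separate groups and a mean of at least 1 CPM, with 0.237 to 0.857 CPM at ZT13 and 0.903 to 3.35 CPM at ZT1 (log2 fold change -1.68 ± 0.40 SE, edgeR adjusted p = 0.0120).

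The largest increases at ZT13 among genes with separate groups and a mean of at least 1 CPM reached 4.28-fold. AAEL013284, listed under neuroactive ligand-receptor interaction, had 8.91, 14.2 and 20.7 CPM as lowest, median and highest at ZT13, against 1.31, 2.63 and 6.91 CPM at ZT1. Its log2 fold change was 2.10 ± 0.34 (SE, edgeR adjusted p = 0.00064). That list also holds the trypsin AAEL007601, so that the listing alone does not mark a receptor gene. AAEL013611, listed under ubiquinone and other terpenoid-quinone biosynthesis, was more abundant and more even, with 41.8, 54.1 and 62.8 CPM at ZT13, against 14.1, 16.3 and 19.0 CPM at ZT1. It was 3.28-fold higher (log2 fold change 1.71 ± 0.09 SE, edgeR adjusted p = 8.03e-09).

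Enzymes made up several of the other increases. AAEL007812, annotated as a heme-binding monooxygenase, had 6.58 to 12.2 CPM at ZT13 and 2.34 to 4.35 CPM at ZT1, a log2 fold change of 1.60. AAEL010196, a serine-type endopeptidase by annotation, had 95.7 to 208 CPM at ZT13 and 29.2 to 84.6 CPM at ZT1 (log2 fold change 1.47), and was the most abundant of the 10. AAEL004933, annotated with hydrolase activity on ester bonds, had 10.5 to 13.8 CPM at ZT13 and 3.90 to 5.84 CPM at ZT1 (log2 fold change 1.39). AAEL006323, an annotated aminopeptidase and metallopeptidase, had 16.9 to 24.9 CPM at ZT13 and 7.14 to 9.59 CPM at ZT1 (log2 fold change 1.17). The groups of all 4 enzymes were apart, and the largest of their edgeR adjusted p was 0.000255. AAEL003269, AAEL013197, AAEL001813 and AAEL023869, which carry no annotation here, rose at ZT13 with log2 fold changes of 1.85, 1.76, 1.54 and 1.32.

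Genes of vision and the senses changed one by one rather than as a block. Photoreceptors of insects detect light through opsins, whose signal passes by G proteins to transient receptor potential channels, and myosin III is a motor and kinase of the photoreceptor. The myosin III gene AAEL009991 had 97.5, 106 and 115 CPM as lowest, median and highest at ZT13, against 50.3, 54.5 and 58.4 CPM at ZT1, a log2 fold change of 0.97 ± 0.05 (SE, edgeR adjusted p = 1.12e-08). The myosin gene AAEL000596 went the other way, with 60.4, 66.8 and 73.3 CPM at ZT13, against 115, 133 and 138 CPM at ZT1, and a log2 fold change of -0.94 ± 0.05 (SE, edgeR adjusted p = 2.5e-08). Neither gene's groups overlapped. The opsin AAEL006259, the most abundant of the eye markers, had 7035 to 8505 CPM at ZT13 and 6577 to 8363 CPM at ZT1, a log2 fold change of 0.07 ± 0.06 (SE, edgeR adjusted p = 0.505), so that no difference was detected.

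G protein subunits moved slightly. AAEL006685, a G protein gamma subunit, had 72.9 to 81.1 CPM at ZT13 and 82.6 to 99.0 CPM at ZT1 (log2 fold change -0.21, edgeR adjusted p = 0.0080), but the call was lost when the spread was estimated over all 24 WT libraries (adjusted p = 0.112) or over both genotypes (adjusted p = 0.150). AAEL010506, a G protein alpha subunit, had 340.2 to 370.2 CPM at ZT13 and 288 to 343 CPM at ZT1, which overlapped (log2 fold change 0.17, edgeR adjusted p = 0.0184). The gonadotropin-releasing hormone receptor gene AAEL011325, a peptide receptor, was higher, with 48 to 62 CPM at ZT13 and 35.6 to 44 CPM at ZT1 (log2 fold change 0.47, edgeR adjusted p = 0.000173). The gustatory receptor Gr11 (AAEL011174) had 13.3 to 15.7 CPM at ZT13 and 14.0 to 23.1 CPM at ZT1, which overlapped (log2 fold change -0.32, edgeR adjusted p = 0.0323), and this call was lost when WT ZT13 replicate 1, 3, 5 or 6 or WT ZT1 replicate 1, 2, 4 or 5 was left out.

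As lists, 2 of 6 tested phototransduction members were higher and 1 was lower, and 1 of 8 sensory perception members was higher and 2 were lower. Of 23 members of G protein-coupled receptor signaling, 2 were higher and 2 were lower. These few calls stand against 5.68% higher and 7.56% lower of all tested genes. None of 15 tested genes listed under odorant binding passed the threshold in either direction, with a median log2 fold change of 0.05. Their log2 fold changes ran from -0.31 for OBP22 to 0.69 for OBP13 (edgeR adjusted p = 0.488 and 0.0584). The list also holds D7 and other secreted proteins used above as salivary gland markers, so it is not confined to odorant-binding proteins of sensory tissue. Of 25 tested genes of neuroactive ligand-receptor interaction, 6 were higher and 5 were lower, the lower count being 3 without WT ZT13 replicate 1, 3, 4 or 5 or WT ZT1 replicate 2, 4 or 5. The list's lower member of largest change, the trypsin AAEL007601, a gut protease that digests protein, had 1.77 to 3.34 CPM at ZT13 and 5.13 to 7.65 CPM at ZT1 (log2 fold change -1.27, edgeR adjusted p = 0.000102). Gr11 and this trypsin were the 2 tissue markers lower at ZT13. The trypsin was the only gut marker, so that it does not speak for the gut as a whole. Of the annotated serine-type endopeptidases named above, AAEL010196 was higher and AAEL001674 lower at ZT13. The part of tissue composition in the results was not tested.

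Lipid and sugar metabolism had more genes higher than lower at ZT13. Of 8 shown and tested members of fatty acid biosynthesis, 4 were higher and 0 lower, with a median log2 fold change of 0.22. The study reported this pathway as enriched among its WT-specific rhythmic genes, so its members may be listed because they varied with time. AAEL001194, annotated with fatty acid synthase activity, was among the abundant transcripts of the body, with 2554, 2857 and 3233 CPM as lowest, median and highest at ZT13, against 1503, 1599 and 1837 CPM at ZT1. The groups were apart, and the level was 1.76-fold higher at ZT13 (log2 fold change 0.82 ± 0.06 SE, edgeR adjusted p = 5.98e-07). AAEL026069, listed under acyl-CoA metabolism and fatty acid biosynthesis, had 885 to 1176 CPM at ZT13 and 541 to 689 CPM at ZT1 (log2 fold change 0.72, edgeR adjusted p = 1.83e-05).

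The wider lipid lists also had more members higher than lower, with medians smaller than that of fatty acid biosynthesis. These lists overlap, and all 8 shown members of fatty acid biosynthesis are counted again in fatty acid metabolism. Fatty acid metabolism had 8 of 25 members higher and 1 lower with a median log2 fold change of 0.03, fatty acid degradation 3 of 11 higher and 0 lower, fatty acid elongation 3 of 9 higher and 1 lower, and glycerolipid metabolism 4 of 15 higher and 2 lower. The elongation enzymes were split. AAEL000188 had 4.56 to 6.05 CPM at ZT13 and 2.42 to 3.24 CPM at ZT1 (log2 fold change 0.94, edgeR adjusted p = 3.39e-05), whereas AAEL020502 had 18.3 to 23.7 CPM at ZT13 and 26.0 to 31.8 CPM at ZT1 (log2 fold change -0.54, edgeR adjusted p = 6.19e-05).

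In carbohydrate metabolism, 3 of 7 members of starch and sucrose metabolism, 4 of 10 of the pentose phosphate pathway and 3 of 14 of glycolysis were higher at ZT13, and 0 were lower. AAEL003434, a hydrolase of glycosyl bonds, had 77.3 to 92.2 CPM at ZT13 and 46.6 to 61.5 CPM at ZT1 (log2 fold change 0.71, edgeR adjusted p = 1.24e-06). AAEL006446, annotated with phosphatase activity and carbohydrate synthesis, had 272 to 338 CPM at ZT13 and 196 to 236 CPM at ZT1 (log2 fold change 0.54, edgeR adjusted p = 3.39e-05). Acetyl-CoA links sugar breakdown to fat synthesis, and both genes below are listed under its metabolism. AAEL020382 had 117 to 188 CPM at ZT13 and 73.3 to 89.2 CPM at ZT1 (log2 fold change 0.82, edgeR adjusted p = 3.42e-05), and AAEL004297, also of the citrate cycle list, had 553 to 712 CPM at ZT13 and 369 to 451 CPM at ZT1 (log2 fold change 0.60, edgeR adjusted p = 2.41e-05). Of 9 citrate cycle members, 3 were higher and 1 was lower, with a median of -0.05.

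Amino acid synthesis followed the same direction, with 7 of 22 members higher and 0 lower and a median log2 fold change of 0.12. AAEL004701, of glutamine family amino acid synthesis, had 15.1 to 20.6 CPM at ZT13 and 7.08 to 12.1 CPM at ZT1 (log2 fold change 0.80, edgeR adjusted p = 0.000237). AAEL006834, under the same term, had 372 to 466 CPM at ZT13 and 247 to 323 CPM at ZT1 (log2 fold change 0.57, edgeR adjusted p = 0.000167). None of 15 aminoacyl-tRNA synthesis members passed the threshold, with a median of 0.04.

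**Figure D3:**
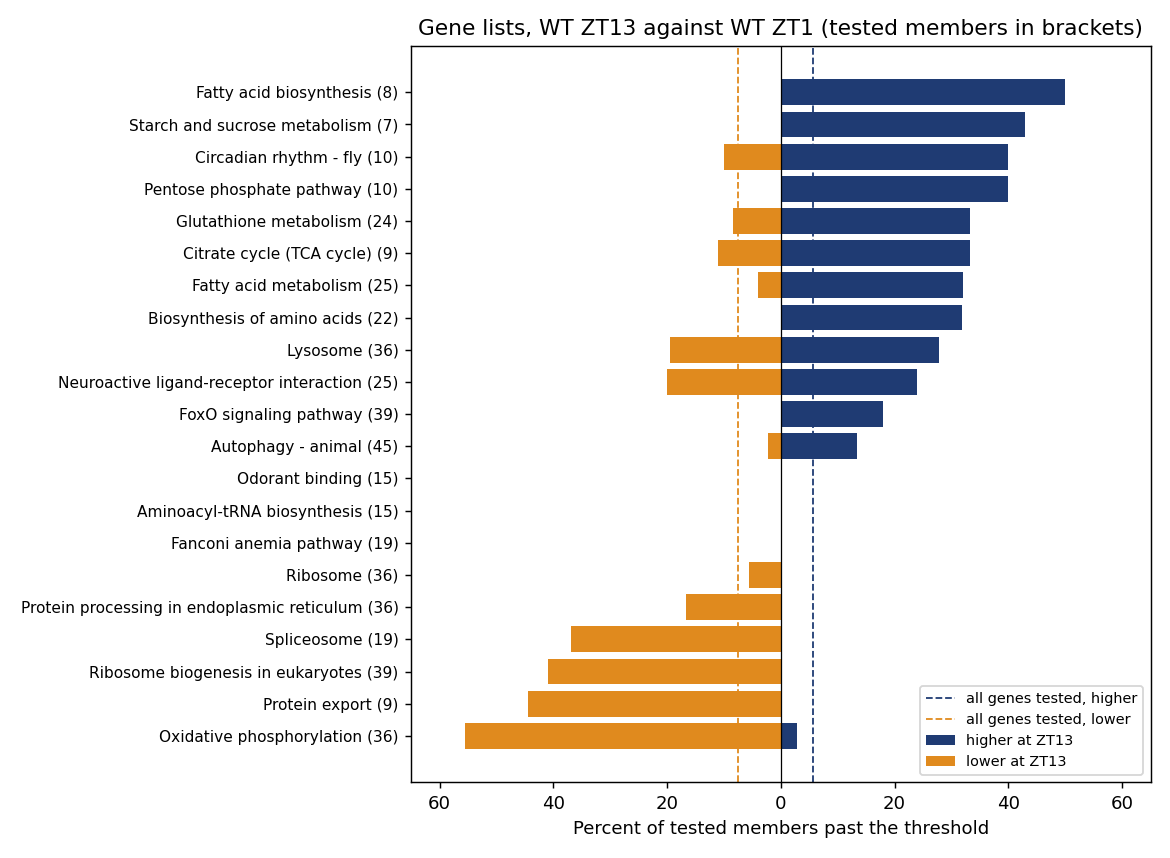
Share of tested members past the threshold in gene lists, higher at ZT13 to the right (blue) and lower at ZT13 to the left (orange), in percent of the tested members given in brackets. Dashed lines mark all tested genes, 5.68% higher and 7.56% lower. Fatty acid biosynthesis (4 of 8 higher) stands at the top and oxidative phosphorylation (20 of 36 lower) at the bottom.

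Oxidative phosphorylation, by which mitochondria make ATP, leaned to lower levels at ZT13. Of 118 members, 36 were shown and tested. Of these, 20 were lower and 1 was higher, 32 had a log2 fold change below 0, and the median was -0.15. The changes were small, between 0.10 and 0.35 in absolute log2 fold change among the members called, and the groups of only 3 of the 20 were apart. AAEL004457, annotated with electron transfer in the mitochondrial intermembrane space, had the largest, with 516 to 611 CPM at ZT13 and 618 to 840 CPM at ZT1 (log2 fold change -0.35, edgeR adjusted p = 0.00174). AAEL002827, of the ATP synthase, had 1245 to 1386 CPM at ZT13 and 1364 to 1858 CPM at ZT1, which overlapped (log2 fold change -0.27, edgeR adjusted p = 0.00736). The only member higher, AAEL007777, belongs by annotation to the V-type ATPase, a proton pump of other membranes, and had 175 to 184 CPM at ZT13 and 152 to 169.6 CPM at ZT1. It is also on the lysosome list, as are the members AAEL000291, AAEL006390 and AAEL006516, so that the list is not confined to mitochondria. The count of 20 depended on the libraries and on the fit. It was between 5 and 12 when WT ZT13 replicate 2, 3, 5 or 6 or WT ZT1 replicate 2, 3, 4 or 5 was left out (9, 5, 9 and 11, and 5, 12, 9 and 8), and 5 when the spread was estimated over all 24 WT libraries.

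Among genes for making ribosomes, splicing and secreted proteins, the members past the threshold were lower at ZT13, although most members did not pass. Of 39 tested members of ribosome biogenesis, 16 were lower and 0 higher, 12 had a log2 fold change above 0, and the median was -0.08. AAEL003514, of RNA pseudouridine synthesis, had 158 to 184 CPM at ZT13 and 215 to 241 CPM at ZT1, and AAEL010248, an rRNA methyltransferase by annotation, had 92.1 to 108 CPM at ZT13 and 129 to 144 CPM at ZT1. The groups of both were apart, at log2 fold changes of -0.42 and -0.41 (edgeR adjusted p = 9.56e-06 and 1.24e-05). This count stayed between 12 and 16 when each library was left out in turn. For the ribosome itself only 36 of 133 members were shown. Of these 36, 2 were lower and 0 higher, with a median of 0.02, and the rest of the ribosome was not covered.

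For the spliceosome, 7 of 19 members were lower and 0 higher, among them AAEL012621, an RNA-binding member with 82.2 to 93.6 CPM at ZT13 and 106 to 126 CPM at ZT1. Protein export had 4 of 9 lower and 0 higher, with AAEL013989 at 71.4 to 91.5 CPM at ZT13 and 92.0 to 117 CPM at ZT1. Protein processing in the endoplasmic reticulum had 6 of 36 lower and 0 higher, with AAEL013320 at 55.6 to 66.3 CPM at ZT13 and 71.4 to 98.0 CPM at ZT1. The groups of these 3 genes were apart, at log2 fold changes of -0.39, -0.36 and -0.44, and the largest of their edgeR adjusted p was 0.00178. The proteasome had 2 of 12 lower and 0 higher, and ubiquitin mediated proteolysis 2 of 57 higher and 4 lower.

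Degradation in lysosomes and by autophagy was mixed. Of 36 lysosome members shown, from 131 in the pathway, 10 were higher and 7 were lower at ZT13. The count of 7 was 3 or 4 without WT ZT13 replicate 3 or 5 or WT ZT1 replicate 2, 4 or 5. AAEL002833, an annotated cysteine peptidase, had 547 to 641 CPM at ZT13 and 416 to 473 CPM at ZT1 (log2 fold change 0.46, edgeR adjusted p = 5.48e-06), and AAEL007592 had 5.41 to 8.92 CPM at ZT13 and 10 to 15.6 CPM at ZT1 (log2 fold change -0.91, edgeR adjusted p = 0.000131). Both pairs of groups were apart. Autophagy, by which cells digest their own parts, had 6 of 45 members higher and 1 lower. Its member of largest change was AAEL009637, also a cysteine peptidase by annotation, with 230.5 to 270.2 CPM at ZT13 and 162 to 184 CPM at ZT1 (log2 fold change 0.59, edgeR adjusted p = 9.19e-07).

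Glutathione metabolism, which buffers oxidants and conjugates foreign compounds, had 8 of 24 members higher and 2 lower, with a median log2 fold change of 0.10. AAEL000044, of polyamine synthesis, had 27.0 to 48.3 CPM at ZT13 and 13.6 to 18.9 CPM at ZT1 (log2 fold change 1.05, edgeR adjusted p = 7.81e-05). AAEL011741, also listed under xenobiotic metabolism, had 139 to 164 CPM at ZT13 and 191 to 244 CPM at ZT1 (log2 fold change -0.51, edgeR adjusted p = 3.42e-05). Metabolism of xenobiotics by cytochrome P450 had 4 of 12 members higher and 2 lower. Insect hormone biosynthesis, the route to juvenile hormone and ecdysone, had 3 of 11 higher and 2 lower. Of these, AAEL024977 had 5.41 to 7.06 CPM at ZT13 and 3.20 to 4.39 CPM at ZT1, and AAEL017320, an oxidoreductase also in terpenoid backbone synthesis, 16.2 to 22.3 CPM at ZT13 and 26.7 to 40.6 CPM at ZT1 (log2 fold changes 0.60 and -0.71, edgeR adjusted p = 0.00132 and 0.000144).

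Among signaling pathways, FoxO signaling, which links nutrient state to growth and stress resistance, had 7 of 39 members higher and 0 lower. AAEL000080 had 26.7 to 44.7 CPM at ZT13 and 17.3 to 24.9 CPM at ZT1 (log2 fold change 0.76, edgeR adjusted p = 0.000346). The mTOR pathway had 2 of 50 higher and 1 lower. The lower one was AAEL004474, a serine/threonine kinase with 66.3 to 74.8 CPM at ZT13 and 92.0 to 102 CPM at ZT1 (log2 fold change -0.49, edgeR adjusted p = 5.98e-07). MAPK signaling had 2 of 49 higher and 2 lower, and Wnt signaling 3 of 55 higher and 2 lower, with medians of 0.04 and 0.02. These few mTOR, MAPK and Wnt calls stand beside 5.68% higher and 7.56% lower of all tested genes, and a difference from those shares was not tested. None of 19 Fanconi anemia pathway members, which repair crosslinked DNA, passed the threshold.

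Few immune genes were listed and tested. Of 14 immune response members, 2 were higher and 1 lower. Of 48 Toll and Imd members 10 were shown, with 2 higher and 0 lower, the larger change being a log2 fold change of 0.63. All tested genes had 5.68% higher and 7.56% lower. AAEL010171, a peptidoglycan recognition protein that senses bacterial cell walls, had overlapping groups of 27.2 to 33.9 CPM at ZT13 and 21.1 to 29.3 CPM at ZT1 (log2 fold change 0.27, edgeR adjusted p = 0.0338), and 7 of 12 libraries each decided this call. AAEL014990 had 5.14 to 7.53 CPM at ZT13 and 7.26 to 11.1 CPM at ZT1 (log2 fold change -0.49, edgeR adjusted p = 0.0109).

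The antimicrobial peptide genes had a wide spread at ZT1. The cecropin AAEL029041 had 0.892, 1.34 and 2.43 CPM as lowest, median and highest at ZT13, against 0.985, 4.24 and 63.9 CPM at ZT1, and the cecropin AAEL029047 had 0.701, 1.17 and 2.40 CPM at ZT13, against 1.03, 2.84 and 22.2 CPM at ZT1. The groups of both overlapped, at log2 fold changes of -3.42 ± 0.93 and -2.45 ± 0.70 (SE, edgeR adjusted p = 0.0237 and 0.0318). The call of AAEL029041 was lost without WT ZT13 replicate 3, 4 or 5 or WT ZT1 replicate 1 (edgeR adjusted p between 0.0512 and 0.0561), and its log2 fold change was -1.93 without that ZT1 library. That of AAEL029047 was lost without WT ZT13 replicate 1, 2, 3, 4 or 5 or WT ZT1 replicate 1 or 6, and its log2 fold change was -1.74 without the last. In the fit of all 24 WT libraries the edgeR adjusted p of the cecropins AAEL029041 and AAEL029047 were 0.191 and 0.209. A like spread was seen for AAEL003881 of ubiquitin mediated proteolysis, with 2.29 to 18 CPM at ZT13 and 2.09 to 125 CPM at ZT1 (log2 fold change -2.92 ± 0.74 SE, edgeR adjusted p = 0.0157).

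The WT libraries at ZT5 and ZT9 place both ends of the contrast in the day. WT ZT9 replicate 2 was left out here, since its counts are identical to those of the library labelled KO ZT13 replicate 1 for every gene. The choice of genes fixes which of ZT13 and ZT1 is higher, so that only the position of ZT5 and ZT9 is a further measurement. Of the 655 genes higher at ZT13, 573 (87.5%) had their highest mean of the 4 times at ZT13 and 418 (63.8%) their lowest at ZT1, and for 344 (52.5%) both held. Of the 872 genes lower at ZT13, 755 (86.6%) had their lowest mean at ZT13 and 616 (70.6%) their highest at ZT1, and for 507 (58.1%) both held. Over all tested genes, which carry no such choice and are no matched baseline, 27.7% were highest at ZT13, 31% were lowest there, and 22.9% had ZT13 and ZT1 as their extremes in either order.

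Single genes reached the ZT13 level along different paths in WT. AAEL008141 averaged 83.4, 36.5, 79.8 and 185 CPM at ZT1, ZT5, ZT9 and ZT13, so that ZT1 was not its low point. Cyc averaged 71.0, 67.1, 30.5 and 39.8 CPM at these times and was already low at ZT9. AAEL003211 stayed at 44.1, 43.0 and 36.3 CPM at ZT1, ZT5 and ZT9 and was low at ZT13, with 11.4 CPM. AAEL005437 declined at each step, with 16.9, 12.5, 8.54 and 3.10 CPM. AAEL027610 averaged 6.35 CPM at ZT1 and 0.623, 0.589 and 0.395 CPM at ZT5, ZT9 and ZT13, and its companions AAEL022253, AAEL017976 and AAEL017975 were likewise low at ZT5, with 0.517, 0.691 and 1.25 CPM.

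**Figure D4:**
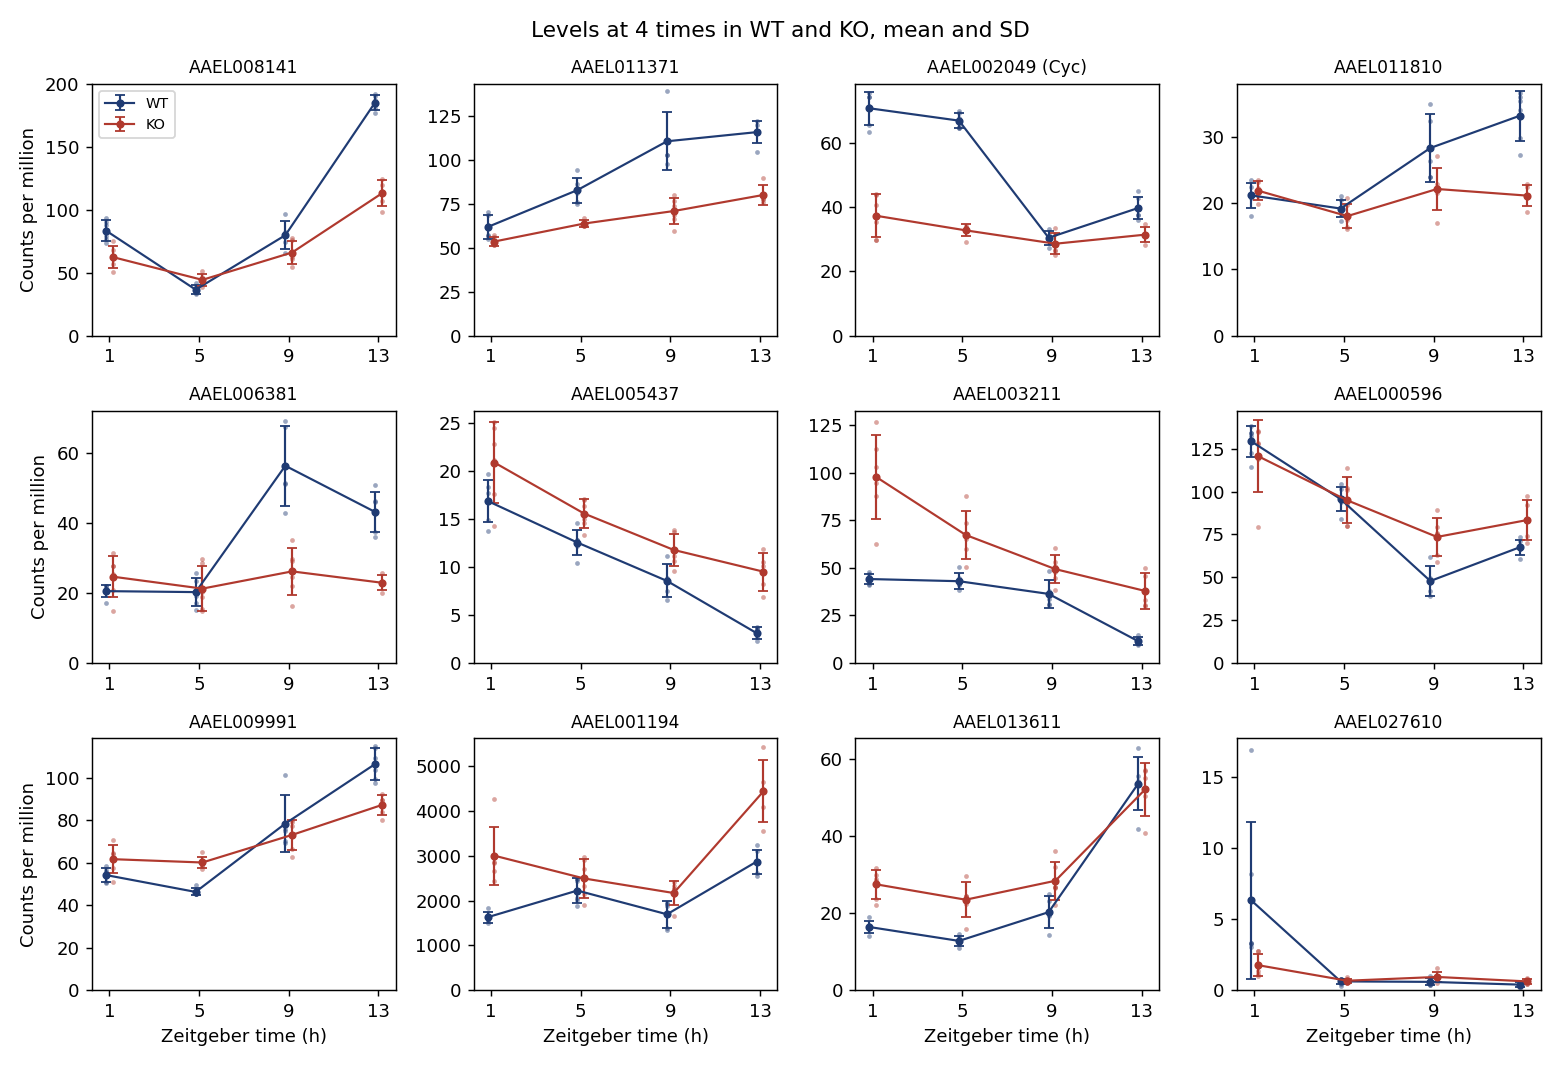
Mean level with SD (CPM, vertical axes from 0) of 12 genes at ZT1, ZT5, ZT9 and ZT13 (h, horizontal axes) in WT (blue) and Cyc KO (red), small points being libraries, without WT ZT9 replicate 2 and KO ZT13 replicate 1. AAEL008141 is highest at ZT13, with 185 CPM in WT and 113 CPM in KO, and AAEL027610 is high at ZT1 and low at the other times.

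The same contrast was set against that of the Cyc KO line to ask which changes differ with the genotype. The KO libraries still held Cyc transcript, with means of 31.5 ± 2.36 CPM at ZT13 (SD, n = 5) and 37.4 ± 6.65 CPM at ZT1 (SD, n = 6), and transcript counts do not show the protein. The 5 KO ZT13 libraries without replicate 1 were used. In KO, 1413 of 11502 tested genes (12.3%) differed between ZT13 and ZT1, 662 higher and 751 lower, and the count was 2655 without KO ZT1 replicate 2. The interaction, the WT change minus the KO change, passed the threshold for 96 of 11945 tested genes (0.804%), and for 73 of the 1527 genes that differed in WT (4.78%). Of these 73 genes, 57 were higher and 16 lower at ZT13 in WT. The absolute change was larger in WT than in KO for 69 of them, and the signs were opposite for 42. The 73 were selected on their WT change, a choice that favors larger values in WT than in KO. Without KO ZT1 replicate 2 the 96 became 272.

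Cyc itself differed between the genotypes, with a log2 fold change of -0.83 in WT and -0.26 in KO (difference -0.56 ± 0.13 SE, edgeR interaction test, adjusted p = 0.0348). AAEL011810 of the rhythmic process term changed by 0.65 in WT and -0.07 in KO (difference 0.73 ± 0.11 SE, edgeR interaction test, adjusted p = 0.000978). AAEL011371 changed by 0.91 in WT and 0.57 in KO (difference 0.35, edgeR interaction test, adjusted p = 0.0480). This call did not hold with KO ZT13 replicate 1 kept (adjusted p = 0.172), with a replicate block (0.0847), with DESeq2 size factors (0.0564), without a filter (0.0748) or in the fit of all libraries (0.0963). For AAEL008141 the log2 fold changes were 1.15 in WT and 0.84 in KO, and the difference of 0.32 did not pass the threshold (edgeR interaction test, adjusted p = 0.163). In KO this gene had a mean of 113 ± 10.3 CPM at ZT13 (SD, n = 5) and 62.4 ± 8.55 CPM at ZT1 (SD, n = 6).

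Several of the leading WT genes also differed. The channel gene AAEL005437 changed by -2.43 in WT and -1.17 in KO, and AAEL006451 by -2.14 in WT and -0.68 in KO, with differences of -1.25 and -1.45 (edgeR interaction test, adjusted p = 0.00435 and 0.00018). AAEL012089 changed by -1.83 in WT and -0.92 in KO, and AAEL022253 and AAEL017975 by -3.78 and -3.15 in WT and -0.98 and -0.92 in KO. On the higher side, AAEL003269 changed by 1.85 in WT and 0.56 in KO, AAEL013611 by 1.71 in WT and 0.91 in KO, and the aminopeptidase AAEL006323 by 1.17 in WT and -0.03 in KO. Myosin III (AAEL009991) changed by 0.97 in WT and 0.48 in KO, and the peptide receptor gene AAEL011325 by 0.47 in WT and 0.04 in KO. For the beta-carotene dioxygenase AAEL003211, with -1.95 in WT and -1.39 in KO, the difference did not pass the threshold (edgeR interaction test, adjusted p = 0.214), nor did it for the fatty acid synthase gene AAEL001194, with 0.82 in WT and 0.55 in KO (edgeR interaction test, adjusted p = 0.375).

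Other genes had a change in WT and a small or opposite value in KO. AAEL006381, annotated with phosphoric ester hydrolase activity, had 36.1 to 50.8 CPM at ZT13 and 17.1 to 22 CPM at ZT1 in WT, a log2 fold change of 1.07 against -0.13 in KO. AAEL014871, of one-carbon metabolism, changed by 0.67 in WT and -0.40 in KO, and AAEL007103 by 0.61 in WT and -0.10 in KO. The amino acid synthesis genes AAEL004701 and AAEL006834 changed by 0.80 and 0.57 in WT and -0.17 and 0.11 in KO. Of the genes lower at ZT13 in WT, AAEL012486 changed by -1.08 in WT and 0.03 in KO, and AAEL027545 by -0.73 in WT and 0.35 in KO. The largest adjusted p of the edgeR interaction test among these 7 genes was 0.0301. With each of the 23 libraries left out in turn, the interaction call of Cyc was lost in 14 fits, that of AAEL011371 in 18, AAEL006834 in 12, AAEL011325 in 10 and AAEL017975 in 9, with differences that kept their sign. Those of the other 15 named genes held in all of these fits.

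**Figure D5:**
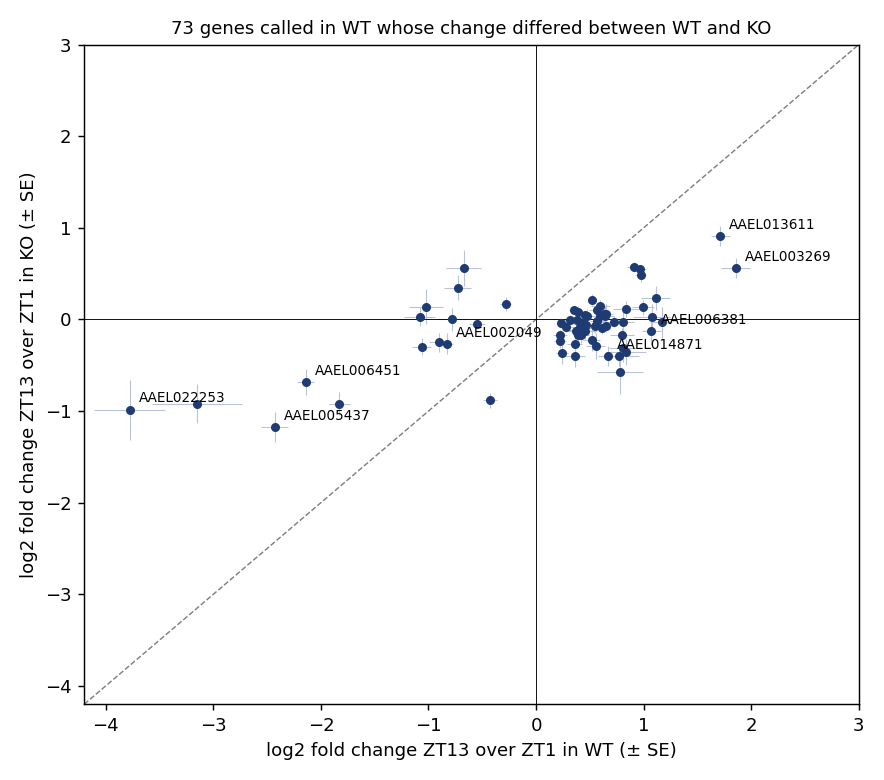
Log2 fold change of ZT13 over ZT1 in KO (vertical axis) against that in WT (horizontal axis), with SE bars, for the 73 genes that differed in WT and whose interaction passed the threshold. The dashed line marks equal changes, and 69 of the 73 have a larger absolute change in WT than in KO.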

How the data were processed

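Per the labels and the study's methods, each library came from pooled whole females 5 days after emergence, and polyadenylated RNA was sequenced in read pairs. The authors processed the reads with FastQC 0.11.9, Trim Galore 0.6.6, HISAT2 2.2.1, SAMtools 1.11 and HTSeq 0.11.3 on the VectorBase Liverpool genome. They deposited raw read counts for 19804 genes per library. Whether reads were counted by strand is not stated there, so overlapping genes and near-identical copies are uncertain. The 5 summary lines of each file, 68.28 to 81.57% of its total over the 48 libraries, entered neither library sizes nor tests.

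Counts were tested in R 4.3.3 with edgeR 4.0.16 (filterByExpr, TMM, quasi-likelihood F test) and limma 3.58.1, on the 12 libraries of WT ZT13 and WT ZT1, with Benjamini-Hochberg adjustment over all tested genes and a threshold of 0.05. SE was taken as the log2 fold change over the square root of F. Replicates are separate pools by their labels. The interaction was fitted on 23 libraries. In simulated counts the WT test recovered 76 of 99 genes changed 1.5-fold and 94 of 99 changed 2-fold, and called 8 unchanged genes among 11464 tested. The interaction test recovered 45 and 77 of 100. Alternatives were DESeq2 1.42.0, its size factors in edgeR, no filter, wider fits, a replicate block and leaving out each library.

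Named genes were the circadian pathway members, the 10 largest changes in each direction among genes with separate groups and a mean of at least 1 CPM, the largest with a product name, the leading called members of each list, and the leading interactions. The members and lists were chosen with earlier results of these data known. None of the gene identifiers matched the reference gene table, so that no sequence or coordinate is given.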

Additional observations from a re-analysis of the deposited data

Results flagged for a closer look

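Of 154 groups of 6 libraries for the 77 named genes, 15 (9.74%) held a library far from the other 5 by Dixon's criterion, which chance gives in about 5% of groups. WT ZT1 replicate 1 was high for AAEL027610 (16.9 CPM), AAEL022253 (6.3), AAEL017976 (6.09), AAEL017975 (17.1) and the cecropin AAEL029041 (63.9), and low for AAEL006381 (17.1). WT ZT13 replicate 6 was low for the circadian pathway members AAEL011371 (104 CPM) and AAEL005238 (168). WT ZT13 replicate 5 was low for AAEL027610 (0.0451 CPM). WT ZT13 replicate 4 was high for AAEL020382 (188 CPM) and AAEL003881 (18), and WT ZT13 replicate 2 for AAEL000044 (48.3) and AAEL012486 (15.3). At ZT1, replicate 3 was high for AAEL020382 (89.2 CPM) and replicate 6 low for AAEL024977 (3.2).

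For 20 named genes the change differed between WT and KO in the edgeR interaction test (WT log2 change minus KO log2 change). The difference was positive for AAEL011371 (0.354), AAEL011810 (0.727), AAEL003269 (1.3), AAEL013611 (0.815), AAEL006323 (1.21), AAEL009991 (0.501), AAEL011325 (0.442), AAEL004701 (0.982), AAEL006834 (0.473), AAEL014871 (1.08), AAEL007103 (0.72) and AAEL006381 (1.21). It was negative for Cyc (AAEL002049, -0.555), AAEL022253 (-2.78), AAEL017975 (-2.21), AAEL005437 (-1.25), AAEL006451 (-1.45), AAEL012089 (-0.899), AAEL012486 (-1.1) and AAEL027545 (-1.06).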

How the results depend on the processing

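The count of 1527 genes that differed between WT ZT13 and WT ZT1 was 1879 with DESeq2 (1518 of them shared), 1520 with its size factors, 1375 without a filter, 1301 in a fit of all 24 WT libraries and 1129 in a fit of both genotypes. Leaving out each library gave 1181 (without WT ZT13 replicate 3) to 1948 (without WT ZT1 replicate 6). Of 462 values of the 77 named genes under other settings, 450 kept their side of the threshold and 12 lost their call, and with a library left out 29 calls were lost, those of AAEL005255, AAEL011174, AAEL010171, AAEL029041 and AAEL029047. No called gene changed sign, whereas AAEL007805, not past the threshold, ran from -0.03 to 0.03 in log2 fold change. The interaction count of 96 was 294 with DESeq2, 82 with KO ZT13 replicate 1 kept, 74 in the widest fit and 61 to 272 over left-out libraries. Of single genes, 63 of 460 interaction calls were lost when a library was left out, and 10 of 120 under other settings. The 10 were 5 of AAEL011371, those of AAEL011325 (adjusted p = 0.0614) and AAEL006834 (0.0506) in the widest fit, and those of AAEL006381 (0.140), AAEL012486 (0.0709) and AAEL027545 (0.120) with KO ZT13 replicate 1 kept. The KO count of 1413 was 2081 with KO ZT13 replicate 1 kept and 2655 without KO ZT1 replicate 2, a setting chosen after seeing the data. These causes were not tested. The count of 20 oxidative phosphorylation members lower at ZT13 was 23 with DESeq2, 15 with size factors or without a filter, 5 in the fit of 24 libraries and 2 in the widest fit.

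Replicate numbers are shared between the times, and no pairing by number was detected. Libraries of the same number correlated at -0.035 to 0.0662, and 0 of 6 correlated best with its own number. Whether libraries shared a rearing batch was not tested. With a replicate block the count was 1433 (1265 shared), and 75 for the interaction. In simulated counts the interaction test recovered 45 of 100 differences of 1.5-fold and 77 of 100 of 2-fold, so that smaller differences may be missed at this depth and number of libraries.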

Other observations

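In a look over 771 terms of at least 8 tested members in the study's tables, chosen after their values were seen and with no test of a list, carbohydrate terms held high shares of genes higher at ZT13. Cellular carbohydrate metabolic process had 8 of 12 members higher and 0 lower, with a median log2 fold change of 0.33, and galactose metabolism had 6 of 11 higher and 0 lower, with a median of 0.16. Propanoate metabolism had 6 of 11 higher and 0 lower, and alpha-amino acid metabolic process 10 of 25 higher and 0 lower. At the other end, mitochondrial respiratory chain complex I, the entry of the electron transport chain, had 7 of 8 members lower at ZT13, with a median of -0.21. How this count depends on single libraries or on the fit was not examined. The related count of 20 in oxidative phosphorylation was 5 in the fit of all 24 WT libraries and 2 in the widest fit. Over all tested genes 5.68% were higher and 7.56% lower.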
